A study of Mus musculus with 12 samples.

Results

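The Tcl1 family of the mouse was read on 12 Affymetrix arrays of embryonic stem cells. Its members were taken by gene symbol (Tcl1 and Tcl1b1 to Tcl1b5). All 6 had a probe set annotated to that symbol alone, 1 probe set each, among 22180 genes measured in this way. The cells carried a tdTomato reporter driven by MERVL, an endogenous retrovirus active in 2-cell embryos, and fell into 4 groups of 3 arrays. These were the parental reporter cells, the same reporter line lacking Dppa2 and Dppa4 (KO), and the KO line given plasmids for GFP-tagged Dppa2 and Dppa4, in wild-type form (KO+WT) or as a SUMO-deficient mutant (KO+Mut). The genotype field of the labels names only the reporter for all 12 samples, so the groups rest on the sample titles, and the SUMO-deficient form is named in the series' design text. Both kinds of add-back cells went through lipofection and a sort for GFP. The labels do not say this of the parental or KO cells, so those steps and the added proteins cannot be told apart in any comparison of an add-back with them. The labels call the 3 samples of a group biological replicates and say nothing of separate clones or cultures, so the p-values measure the spread between these samples.

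TCL1 proteins are small beta-barrel adaptors that bind the pleckstrin homology domain of AKT kinases and raise their activity. The founding gene was found at a chromosome breakpoint of T-cell leukaemia, and besides lymphocytes it is transcribed in oocytes, early embryos and embryonic stem cells, where its loss is known to impair self-renewal. The mouse has a group of Tcl1b genes beside Tcl1. In the RefSeq gene order of chromosome 12 the 6 genes followed each other as Tcl1b2, Tcl1b1, Tcl1b5, Tcl1b3, Tcl1b4 and Tcl1, with no other listed gene between them.

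The start regions of these genes are shown because those of the Tcl1b copies resemble each other, while Tcl1 lacks the runs of bases they share. The bases shown lie before the gene start, so they do not show how far the arrays can tell the copies apart. Each line gives the 100 bases before the annotated gene start, 5′ to 3′ on the gene's strand, from RefSeq (build GRCm38.p6). Capitals mark, in the Tcl1b genes, the runs of 22 and 25 bases found in all 5 of them, and in Tcl1 the letters of a GC box (GGGCGG, read on either strand).
Tcl1b2 (chr12:105146919-105147018, plus strand): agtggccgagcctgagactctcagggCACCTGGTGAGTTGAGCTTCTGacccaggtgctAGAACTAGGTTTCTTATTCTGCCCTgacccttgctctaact
Tcl1b1 (chr12:105159604-105159703, plus strand): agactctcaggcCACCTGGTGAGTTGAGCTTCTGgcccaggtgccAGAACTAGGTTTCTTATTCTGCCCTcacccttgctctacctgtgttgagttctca
Tcl1b5 (chr12:105176244-105176343, plus strand): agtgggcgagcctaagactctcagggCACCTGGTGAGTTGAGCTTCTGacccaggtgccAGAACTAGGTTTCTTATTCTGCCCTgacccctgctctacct
Tcl1b3 (chr12:105190945-105191044, plus strand): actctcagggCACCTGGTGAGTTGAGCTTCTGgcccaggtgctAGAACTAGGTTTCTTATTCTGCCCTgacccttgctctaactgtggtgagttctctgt
Tcl1b4 (chr12:105202295-105202394, plus strand): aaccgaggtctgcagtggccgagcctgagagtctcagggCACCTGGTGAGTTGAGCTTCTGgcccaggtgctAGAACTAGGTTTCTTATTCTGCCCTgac
Tcl1 (chr12:105222738-105222837, minus strand): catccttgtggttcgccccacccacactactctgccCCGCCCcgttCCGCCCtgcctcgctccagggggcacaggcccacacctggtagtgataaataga
Neither shared run was present in the start region of any gene outside the Tcl1b group among 32851 RefSeq start regions of 300 bases. Over those 300 bases the Tcl1b genes were 67.5% to 98.6% identical to each other in pairwise local alignments, with Tcl1b2 and Tcl1b4 the closest pair (283 identical bases and 4 mismatches). Tcl1 had 11 CpG dinucleotides and the Tcl1b genes 2 to 6, against a median of 7 over all start regions. On both strands of the 300 bases, the GC box was found in Tcl1 alone of the 6 genes and in 35.7% of all start regions. The TATA box TATAAA (13.6% of all), the octamer ATGCAAAT (1.74%) and the E-box CACGTG (7.15%) were found in 0 of the 6, which says only that these letters are not in these windows. The probe sequences of the array were not used here, and the transcripts of the copies were not compared, so whether Tcl1b genes share probes was not tested and their values are uncertain as values of single genes.

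The arrays had medians between 3.73 and 3.88 and lower quartiles between 2.36 and 2.47 (log2 signal), and no pair of arrays held identical values. The knocked-out genes followed the titles in order: Dppa2 lay at 8.13 to 8.69 in KO cells against 9.35 to 10.17 in parental cells and 10.79 to 11.34 in the add-backs, and Dppa4 at 7.31 to 7.92 against 8.24 to 8.58 and 10.09 to 10.67. In KO against parental cells the fall of Dppa2 passed (-1.29, limma adjusted p = 0.0259) and that of Dppa4 did not (-0.84, adjusted p = 0.102). On the KO arrays Dppa2 still lay at percentiles 93.0 to 95.4 of all probe sets and Dppa4 at 87.3 to 91.7. No source used here says whether their probes lie in the deleted part. The 6 embryonic stem cell markers (Pou5f1, Sox2, Nanog, Zfp42, Esrrb and Tdgf1) had list means of 9.17 to 9.29 on all arrays. Of these 0 passed a test between groups, but Sox2 in KO+Mut against parental cells (-0.40, limma adjusted p = 0.118) had adjusted p = 0.0344 under the replicate block (arrays paired by replicate number), 0.0308 with trended and robust variances and 0.0498 with array weights. The 6 markers of 2-cell-like cells, a rare state of these cultures, moved with the groups. Their list mean was 4.05 to 4.91 in parental, 2.51 to 2.72 in KO, 7.08 to 8.92 in KO+WT and 8.29 to 9.32 in KO+Mut cells, and 5 of them rose in each add-back over KO. What part they have in the values of the Tcl1 family was not tested. Of the lymphocyte markers 4 of 6 were measured, with list means of 3.32 to 4.30, and 1 of them, Cd3e, a chain of the T-cell receptor complex, fell in KO (-1.77, limma adjusted p = 0.00589) and in KO+Mut (-1.15, adjusted p = 0.0329) against parental cells. The KO+Mut call was lost without parental replicate 2 or 3 or without any one KO+Mut array. Primitive endoderm markers had list means of 6.28 to 7.07 in parental cells and 5.53 to 6.11 in the other groups, fibroblast markers 3.89 to 4.26 and oocyte markers 3.04 to 3.33 over all arrays, and 0 of 6 in each of these lists passed a test. Under the replicate block the endoderm marker Pdgfra fell in KO, and Pdgfra and Dab2 in each add-back, against parental cells, as did the oocyte marker Zp3 in each add-back, while the fibroblast marker Pdgfrb rose in KO. Without parental replicate 1 the endoderm marker Sox7 fell in all 3 of these comparisons and Pdgfra in KO+Mut. Without KO replicate 1 Pdgfra, and without KO replicate 3 Dab2, fell in KO+Mut against parental cells, where Pdgfra also fell with dim genes left out, and both with trended and robust variances or array weights.

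None of the 6 Tcl1 family genes passed the test in any of the 6 comparisons between groups. The test was limma on log2 signal with Benjamini-Hochberg adjustment over 22180 genes, called at an adjusted p under 0.05. The smallest adjusted p of the 36 values was 0.058 and 7 had an unadjusted p under 0.05, where over all genes and comparisons 9.44% of values did. Among all genes the share called was 0.239% for KO against parental, 0.83% for KO+WT against KO, 1.27% for KO+Mut against KO, 0% for KO+Mut against KO+WT, 0.55% for KO+WT against parental and 0.992% for KO+Mut against parental. Pairing arrays by replicate number raised the calls over all genes from 8 higher and 45 lower to 40 and 97 for KO against parental, from 71 and 51 to 237 and 221 for KO+WT against parental and from 145 and 75 to 353 and 342 for KO+Mut against parental cells, with 0 members among them. In comparisons with parental cells, the smallest limma adjusted p of a member over all alternatives, the block included, was 0.0745 (Tcl1 in KO+Mut). The differences of the family ran from -0.49 to 0.62 (log2). The 95% limma interval stayed within 1 log2 unit of 0, which is a 2-fold change on this scale, in 34 of the 36, and the other 2 were those of Tcl1b5 in each add-back against parental cells. Half-widths of the intervals were 0.244 to 0.584, and the number of arrays limits them. Comparisons that share the KO or the parental arrays are not independent of each other.

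**Figure D1:**
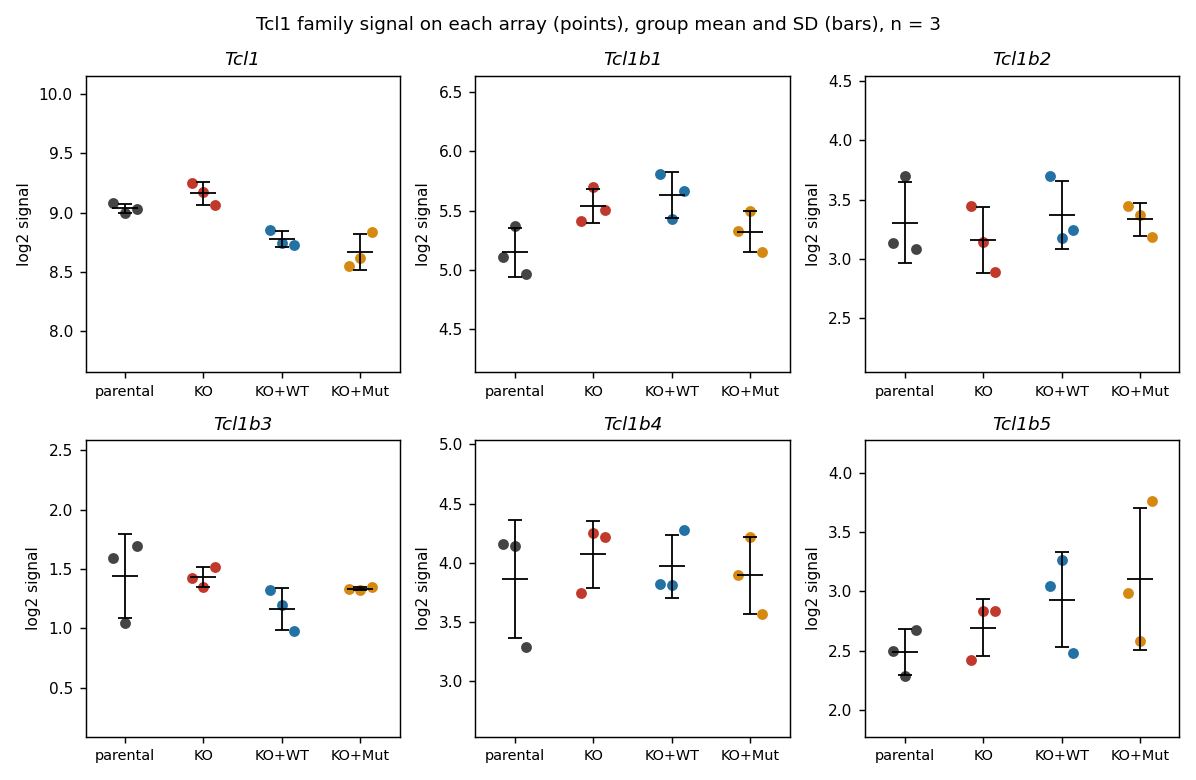
Log2 signal (vertical axes, each spanning 2.5 log2 units) of the 6 Tcl1 family genes on each array (points) by group, with the group mean and SD (bars, n = 3). The Tcl1 points of both add-backs, 8.55 to 8.85, lie below all parental and KO points, 9.00 to 9.25, while most groups of the Tcl1b genes overlap. How common this Tcl1 pattern is among all genes was not counted.

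Tcl1, the founding AKT co-activator of the family, was the member nearest to the threshold. Its signal was 9.08, 9.00 and 9.03 on parental replicates 1, 2 and 3, and 9.25, 9.17 and 9.06 on the KO replicates. With wild-type add-back it was 8.85, 8.75 and 8.73, and with mutant add-back 8.55, 8.61 and 8.84. All 6 add-back arrays were lower than all 6 arrays without add-back, while parental and KO arrays overlapped and so did the add-backs. How many of all genes have this joint pattern was not counted. The place of Tcl1 among all probe sets was between percentiles 95.1 and 97.1 on every array.

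In descending order, the Tcl1 means were 9.16 ± 0.10 in KO, 9.04 ± 0.04 in parental, 8.78 ± 0.07 in KO+WT and 8.67 ± 0.15 in KO+Mut cells (SD, n = 3 each). Against KO cells the difference was -0.49 in KO+Mut (SE 0.11, 95% interval -0.74 to -0.25, limma adjusted p = 0.058). In KO+WT it was -0.39 (SE 0.11, -0.63 to -0.14, adjusted p = 0.17). Neither passed. All 3 arrays of each add-back lay below all KO arrays, which 8.77% of all genes had for KO+Mut and 7.43% for KO+WT. The KO+Mut difference passed in some other fits, with adjusted p = 0.0275 after centring each array on its median, 0.0373 when the dimmest genes were left out, 0.0173 with trended and robust variances, 0.0149 with array weights and 0.0447 without KO+Mut replicate 3, whose Tcl1 signal was the highest of its group. The replicate block gave a call too, though whether the arrays of this comparison are paired is uncertain. Over all alternatives the limma adjusted p of the KO+Mut difference ran from 0.0149 to 0.204 and the difference from -0.58 to -0.43. The KO+WT difference passed in none of them (adjusted p 0.0855 to 0.388).

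Against parental cells Tcl1 differed by -0.37 in KO+Mut (SE 0.11, limma adjusted p = 0.193) and by -0.26 in KO+WT (adjusted p = 0.424), without overlap in either. Groups that do not overlap with the first lower are common on these arrays: 7.43% of all genes for KO+WT against KO, 8.77% for KO+Mut against KO, 7.8% for KO+WT against parental and 9.38% for KO+Mut against parental cells. Loss of Dppa2 and Dppa4 gave a Tcl1 difference of 0.12 (95% interval -0.12 to 0.37, limma adjusted p = 0.961). The mutant and wild-type add-backs differed by -0.11 (-0.35 to 0.14, adjusted p = 1). That interval reaches from 0.35 log2 units lower to 0.14 higher in the mutant, and the p does not show that they act alike. No neighbouring groups in the order of Tcl1 means differed by the test. In bulk RNA, fewer cells that transcribe Tcl1 and less Tcl1 RNA per cell cannot be told apart.

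Tcl1b1 was the Tcl1b gene with the highest place on the arrays, between percentiles 66.5 and 74.8. Its signal was 5.11, 5.37 and 4.96 on the parental arrays, 5.41, 5.70 and 5.50 in KO, 5.81, 5.43 and 5.66 on the KO+WT arrays and 5.33, 5.49 and 5.15 on the KO+Mut arrays. The parental arrays were below all KO and KO+WT arrays, and the KO+Mut arrays overlapped with every other group. The means were 5.63 ± 0.19 in KO+WT, 5.54 ± 0.15 in KO, 5.32 ± 0.17 in KO+Mut and 5.15 ± 0.21 in parental cells (SD, n = 3). KO cells differed from parental cells by 0.39 (SE 0.15, 95% interval 0.07 to 0.71, limma adjusted p = 0.572) and KO+WT cells by 0.48 (SE 0.15, 0.16 to 0.81, adjusted p = 0.238). Of all genes, 6.11% and 8.05% had groups that did not overlap with the first higher in these comparisons. From KO to KO+WT the difference was 0.10 (-0.23 to 0.42, adjusted p = 0.853), from KO to KO+Mut it was -0.21 (adjusted p = 0.616) and from parental to KO+Mut 0.17 (adjusted p = 0.732), so no neighbours in that order passed the test. The add-backs differed by -0.31 (-0.63 to 0.01, adjusted p = 1).

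The other 4 Tcl1b genes, which encode proteins of the same fold, lay lower on the arrays. No detection calls were used, so values near the lower quartile cannot be separated from background and their log2 differences can understate a change. Tcl1b4 had signals of 4.16, 4.14 and 3.29 in parental, 3.74, 4.26 and 4.22 in KO, 3.82, 3.81 and 4.28 on the KO+WT arrays and 3.90, 4.22 and 3.57 on the KO+Mut arrays. Its 4 groups all overlapped, and its differences lay between -0.18 and 0.21.

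Tcl1b2 had signals of 3.13, 3.70 and 3.08 in parental, 3.44, 3.15 and 2.89 in KO, 3.70, 3.17 and 3.24 on the KO+WT arrays and 3.45, 3.37 and 3.18 on the KO+Mut arrays. All groups overlapped here too, with differences from -0.15 to 0.21. Tcl1b2 and Tcl1b4, whose start regions are the closest of the family, did not share an order of group means: the highest mean was that of KO+WT for Tcl1b2 (3.37 ± 0.28) and that of KO for Tcl1b4 (4.07 ± 0.29), both within the spread of the other groups.

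Tcl1b5 had signals of 2.50, 2.29 and 2.67 in parental, 2.42, 2.83 and 2.83 in KO, 3.04, 3.27 and 2.48 on the KO+WT arrays and 2.98, 2.58 and 3.76 on the KO+Mut arrays. It had the widest range of the family, 1.47 log2 units, whose upper end was KO+Mut replicate 3. Its means ran from 2.49 ± 0.19 in parental over 2.69 ± 0.24 in KO and 2.93 ± 0.40 in KO+WT to 3.11 ± 0.60 in KO+Mut cells, and all groups overlapped. The difference of KO+Mut from parental cells, the largest rise of the family, was 0.62 (SE 0.27, 95% interval 0.04 to 1.21, limma adjusted p = 0.399). Without KO+Mut replicate 3 it was 0.30.

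Tcl1b3 was at the foot of the arrays, between percentiles 1.21 and 12.5. Its signals were 1.59, 1.04 and 1.69 in parental, 1.43, 1.35 and 1.52 in KO, 1.32, 1.19 and 0.98 on the KO+WT arrays and 1.33, 1.32 and 1.35 on the KO+Mut arrays, all below the arrays' lower quartiles. The KO+WT arrays were all below the KO arrays, which 7.43% of all genes had. The mean difference was -0.27 (95% interval -0.61 to 0.08, limma adjusted p = 0.542), and in the other comparisons the groups overlapped.

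**Figure D2:**
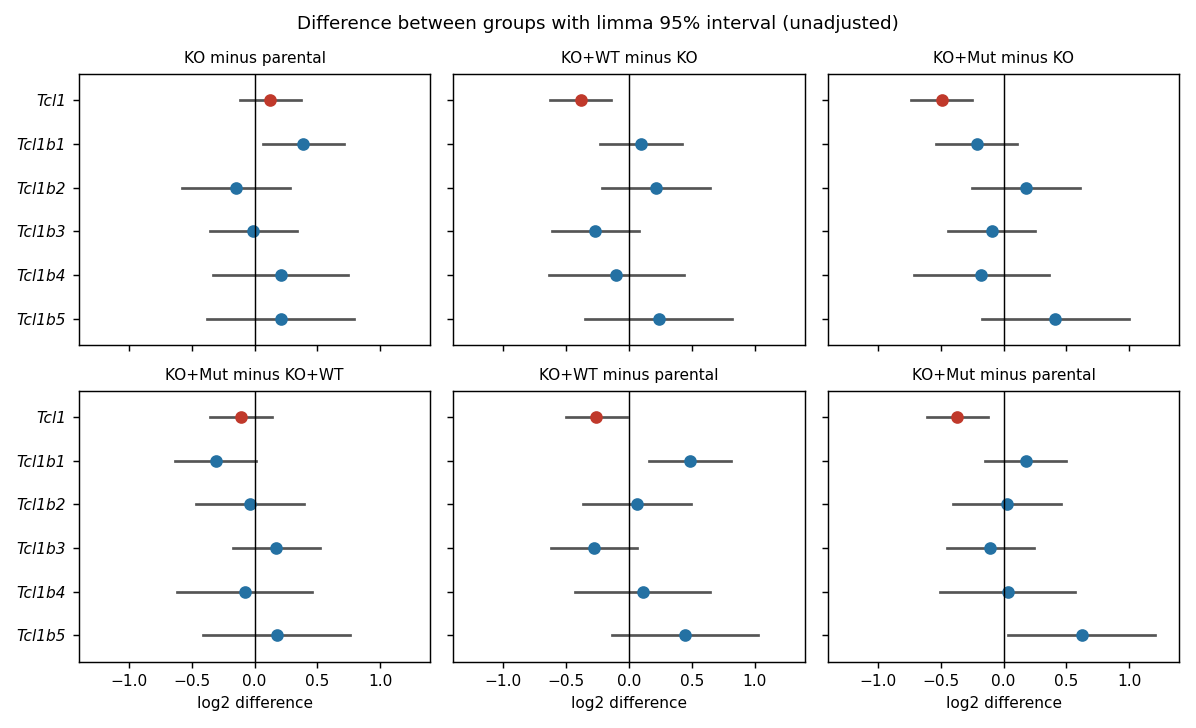
Differences between groups (horizontal axes, log2) of the 6 genes in the 6 comparisons, with points for the limma estimate and lines for the unadjusted 95% interval. Tcl1 (red) lies below 0 in the 4 comparisons of an add-back with KO or parental cells, down to -0.49, while the Tcl1b genes (blue) lie on both sides.

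Whether the Tcl1b genes responded by another amount than Tcl1 was asked on the difference between the 2 signals within each array. Relative to Tcl1, the change from KO to KO+WT was 0.48 higher for Tcl1b1, 0.60 for Tcl1b2, 0.12 for Tcl1b3, 0.28 for Tcl1b4 and 0.62 for Tcl1b5 (log2). From KO to KO+Mut it was 0.28, 0.67, 0.40, 0.31 and 0.91 higher in the same order. All 10 values share the Tcl1 signals, which makes their common sign no sign of stability. In 5 of the 10, which reuse the same Tcl1 values, the groups of arrays did not overlap. How often other pairs of genes do so was not counted. For those 5 the exact permutation test (two-sided) gave p = 0.1, its lower limit with 3 arrays a group. Over the 10 pairs the adjusted p of that test was 0.2. As no pair could pass this test whatever its values, it says nothing of whether members differ, and the values are a description.

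The AKT kinases that TCL1 proteins bind, and the enzymes above and below them, were read next, and 31 of 35 listed genes were measured. In each of the 6 comparisons 0 of the 31 passed limma's test, with 0 to 6 at an unadjusted p under 0.05, and the medians lay between -0.03 and 0.02. Named by smallest p were Pik3r1, a regulatory subunit of phosphoinositide 3-kinase, and Phlpp2, a phosphatase that acts on AKT. Pik3r1 was 5.95, 6.39 and 6.26 in parental and 5.46, 5.74 and 5.69 in KO cells, a difference of -0.57 (SE 0.17, limma adjusted p = 0.386) without overlap, which 6.83% of all genes had with KO lower. With the replicate number as a block it passed (adjusted p = 0.0369). Phlpp2 was 5.73, 5.66 and 5.65 in KO and 5.32, 5.33 and 5.04 in KO+WT cells, a difference of -0.45 (SE 0.13, adjusted p = 0.17). Akt1 and Akt2, given as the direct partners and chosen after their values were seen, differed from KO cells by 0.25 and -0.02 with wild-type and by 0.19 and -0.12 with mutant add-back (smallest limma adjusted p = 0.633). Mtcp1, a relative of Tcl1 outside this cluster that was on the same list, differed from KO cells by -0.23 with wild-type and by -0.49 with mutant add-back (95% interval -0.998 to 0.024, limma adjusted p = 0.424). Its signal was 4.78, 4.41 and 3.66 in KO and 3.86, 3.77 and 3.76 in KO+Mut cells, and these overlapped. In parental cells Mtcp1 was 4.65, 4.13 and 4.14, above all KO+Mut arrays, and 9.38% of all genes had KO+Mut lower without overlap. That difference was -0.51 (95% interval -1.02 to 0.003, limma adjusted p = 0.438).

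Among 18 regulators of embryonic stem cell self-renewal, 1 fell in KO+WT against KO (median -0.09, 14 of 18 lower), 1 fell in KO+Mut against KO (median -0.16, 13 lower) and 0 changed in KO against parental cells (median 0.08, 12 higher). The medians over all genes were between -0.01 and 0.00. The gene that fell was Prdm14, a transcriptional regulator of naive pluripotency, by 0.78 with wild-type and by 0.70 with mutant add-back (limma adjusted p = 0.0148 and 0.0194). Its signal was 6.43, 6.67 and 6.65 in KO, 5.82, 5.86 and 5.73 on the KO+WT arrays and 5.76, 5.73 and 6.15 on the KO+Mut arrays. All 6 add-back arrays were thus lower than the KO arrays. Of all genes, 7.43% had this for KO+WT and 8.77% for KO+Mut. Neither call held in every fit. The KO+WT call was lost without KO replicate 2 (limma adjusted p = 0.0783), KO replicate 3 (0.0695), KO+WT replicate 2 (0.0503) or KO+WT replicate 3 (0.0524). The KO+Mut call was lost without KO replicate 2 (limma adjusted p = 0.0929), KO replicate 3 (0.0814), KO+Mut replicate 1 (0.0839) or KO+Mut replicate 2 (0.107). Fitting only the 6 arrays compared gave adjusted p = 0.0583 and 0.0936. Against parental cells Prdm14 fell in KO+WT (-0.67, limma adjusted p = 0.0464). That call was lost on leaving out any one array other than KO+Mut replicate 3 (adjusted p up to 0.172). It was also lost with quantile normalization and when only the 6 arrays compared were fitted. In KO+Mut against parental cells 0 of the 18 passed (Prdm14, limma adjusted p = 0.0592). Under the replicate block 3 fell, Prdm14 (-0.59, limma adjusted p = 0.0407), Sox2 (-0.40, 0.0344) and Il6st, the signal-transducing subunit of the LIF receptor (-0.45, 0.035). Prdm14 also fell there with median centring, dim genes left out, trended and robust variances, array weights or without KO+Mut replicate 3. Sox2 did so with trended and robust variances or array weights.

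The 20 nearest measured genes around the cluster, 10 on each side, also held 0 that passed limma's test in any comparison, with 0 to 4 at an unadjusted p under 0.05 and medians between -0.05 and 0.00. On the Tcl1b2 side the nearest was Glrx5, a mitochondrial glutaredoxin of iron-sulphur cluster assembly, which differed from KO cells by 0.09 in KO+WT and 0.12 in KO+Mut cells. On the Tcl1 side it was the noncoding RNA gene Tunar, which differed by 0.23 and 0.15 (smallest limma adjusted p of both genes, 0.527). With the replicate number as a block, 1 of the 20, Clmn, passed in KO+Mut against parental cells (-0.73, limma adjusted p = 0.408 without the block and 0.0179 with it). Of smallest p were Serpina3b (0.39 in KO+Mut against KO, limma adjusted p = 0.198) and the noncoding RNA gene Snhg10 (-0.35, adjusted p = 0.24). Serpina3b lay between 1.42 and 2.08 on all arrays, below their lower quartiles, so its values cannot be separated from background.

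The 2-cell-like genes served as the comparison list, 29 of 34 being measured. In KO cells 4 fell and 0 rose (median -0.83), in KO+WT against KO 16 rose and 0 fell (median 3.19), and in KO+Mut against KO 20 rose and 0 fell (median 3.86). The Tcl1 family medians beside these were 0.17, -0.00 and -0.14, with 0 of 6 genes called in each. The KO count of 4 was 2 without parental replicate 2 or KO replicate 1, 7 without KO+WT replicate 1, 7 under the replicate block and 9 with array weights. The contrast between the lists was not tested.

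**Figure D3:**
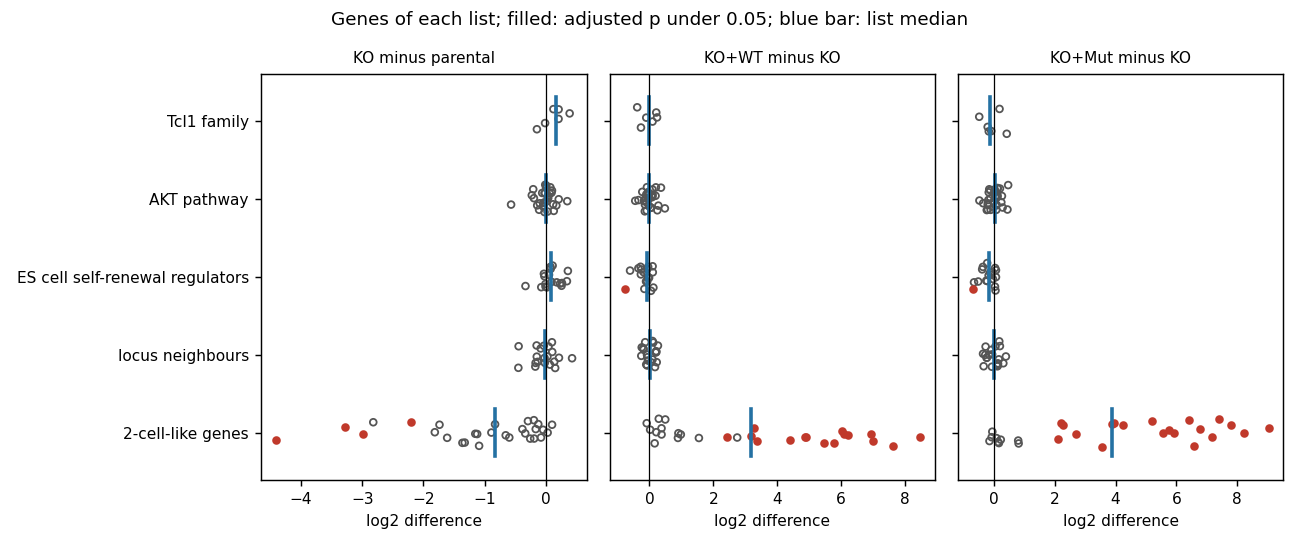
Log2 differences (horizontal axes, scaled separately in each panel) of the genes of 5 lists in 3 comparisons, with filled red points for an adjusted p under 0.05, open points for others and a blue bar for the list median. The Tcl1 family, the AKT list and the neighbours of the cluster hold no filled point, 1 self-renewal gene (Prdm14) is filled below 0 in each add-back, and the 2-cell-like genes reach 9.04 in KO+Mut against KO.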

How the data were processed

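Total RNA of 12 samples was labelled with biotin and hybridised, per the labels' protocols. The authors deposited 1 normalized log2 signal per probe set and array; the tool was the Transcriptome Analysis Console, per the submitters' processing notes. Its version, the summarization and the genome build are named in no source used here. The log2 scale was inferred from the values' range. Any compression of low signals in that step carries into the differences.

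Of 41345 probe sets, 23521 had 1 symbol in GEO's array annotation, 1814 several and 16010 none. Single-symbol probe sets stood for their gene (highest mean of several), which left 22180 genes. limma 3.58.1 in R 4.3.3 was fitted over all 12 arrays with 1 mean per group (lmFit, eBayes), and p-values were adjusted by Benjamini-Hochberg per comparison. It was tested on simulated data. Pairs of members were compared by exact permutation in scipy 1.17.1, and figures were made with matplotlib 3.10.9. Members and lists were chosen with earlier results of these data known. All members were named, with the genes past the threshold of each list (up to 4) or its 2 of smallest p; of the 2-cell-like list only counts are given. Genes with patterns most like a member's were to be named only for members past the threshold, of which there were 0.

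Arrays of the same replicate number deviated together (correlation of deviations from the group mean over 0.1 in all 3 pairs) for KO against parental (0.36, 0.15 and 0.42), the add-backs against each other (0.40, 0.21 and 0.47), KO+WT against parental (0.33, 0.15 and 0.31) and KO+Mut against parental cells (0.33, 0.13 and 0.36), so the numbers were taken to pair the samples there. All values are from the fit without the block unless the block is named, and its value stands beside a result of these comparisons where it changes the call. The SEs, intervals and adjusted p-values printed for these comparisons otherwise leave the pairing out. For KO+WT and KO+Mut against KO, replicate 2 had 0.06 and 0.08, so they were not taken as paired. Replicates 1 and 3 had 0.31 and 0.29 for KO+WT against KO, and 0.31 and 0.36 for KO+Mut against KO.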

Additional observations from a re-analysis of the deposited data

How the results depend on the processing

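The count of Tcl1 family genes called was 0 in all 6 comparisons and stayed 0 under every alternative run, except in KO+Mut against KO, where Tcl1 made it 1 with the replicate number as a block (replicate block, adjusted p = 0.0341), median centring, dim genes left out, trended and robust variances, or array weights; leaving out 1 array gave 0 to 1. The block changed no other call of a member. In that comparison the arrays of replicates 1 and 3 deviated together (0.31 and 0.36) and those of replicate 2 hardly did (0.08). Whether its arrays are paired is therefore uncertain. Among the AKT pathway and self-renewal genes the block also added calls in KO+Mut against KO, of Sox2 (-0.37, limma adjusted p = 0.0461; 0.044 with trended and robust variances), Il6st (-0.53, 0.0184) and Pik3r1 (0.44, 0.0424), and of Phlpp2 in KO+WT against KO (-0.45, 0.0427). The cause of these changes was not tested. With dim genes left out, 16635 genes were tested and Tcl1b3 was not among them.

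Of 36 differences 24 kept their sign under all alternatives, those of Tcl1 among them, and the 12 that did not were at most 0.21 in size. Only quantile normalization, median centring, array weights and leaving out an array of the comparison could change a difference. The other alternatives alter the variance or the set of genes tested, or average probe sets, of which each member had 1. Under these the sign was fixed, so keeping it there is no sign of stability. Median centring turned Tcl1b3 in KO against parental (0.0074), and, in KO+Mut against parental, Tcl1b2 (-0.030) and Tcl1b4 (-0.029); quantile normalization turned those of Tcl1b2 (-0.020) and Tcl1b4 (-0.029). Array weights turned Tcl1b3 in KO against parental (0.048), Tcl1b1 in KO+WT against KO (-0.0052), Tcl1b2 (0.022), Tcl1b4 (0.063) and Tcl1b5 (-0.075) in KO+Mut against KO+WT, Tcl1b2 (-0.062) and Tcl1b4 (-0.021) in KO+WT against parental, and Tcl1b2 (-0.040) in KO+Mut against parental cells. Leaving out 1 array gave, for KO against parental, -0.29 to 0.052 (Tcl1b2), -0.21 to 0.11 (Tcl1b3) and -0.079 to 0.37 (Tcl1b4); for KO+Mut against KO+WT, -0.13 to 0.13 (Tcl1b2), -0.24 to 0.087 (Tcl1b4) and -0.15 to 0.44 (Tcl1b5); for KO+WT against parental, -0.097 to 0.26 (Tcl1b2) and -0.18 to 0.26 (Tcl1b4); and for KO+Mut against parental cells, -0.081 to 0.23 (Tcl1b2), -0.31 to 0.018 (Tcl1b3) and -0.26 to 0.19 (Tcl1b4). The 10 differences between members kept their sign under each alternative run. Over all genes, calls in KO+Mut against KO were 248 higher and 34 lower; they were 480 and 236 with the block, 194 and 72 with median centring, and 109 and 10 without KO+Mut replicate 2.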
